A study of Mus musculus with 50 samples.

Results

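The genes Ache, Chat, Slc18a3, Slc5a7, Isl1, Mmp9, Ret, Calca and Calcb mark cholinergic motor neurons or act in them, and every array probe whose platform annotation carries one of these symbols was taken. Of the 20355 probes in the deposited table, 4 met this rule, and they cover 3 of the 9 genes. Ache was measured by probe 2111, Ret by probe 5463, and Mmp9 by probes 2214 and 18813, which the annotation assigns to the same RefSeq transcript. No named probe matched Chat, Slc18a3, Slc5a7, Isl1, Calca or Calcb by symbol, gene identifier or RefSeq accession, and these 6 genes were not analysed here. The annotation names 14035 of the probes, for 9930 genes. The enzyme that makes acetylcholine, its vesicular and choline transporters and the CGRP neuropeptides are therefore outside the measured set, and the measured genes are a degrading enzyme, a growth factor receptor and a protease.

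Motor neurons of the spinal cord release acetylcholine onto muscle. Chat makes the transmitter from choline, which Slc5a7 carries into the terminal, Slc18a3 loads it into vesicles, and Ache splits it after release. Isl1 is a LIM homeodomain factor that sets motor neuron identity, and Calca and Calcb encode the calcitonin gene-related peptides that motor neurons and sensory neurons also release. Ret is the receptor tyrosine kinase through which glial cell line-derived neurotrophic factor signals, in motor neurons as survival support and in the testis in spermatogonial stem cells. Mmp9 is a secreted gelatinase that marks the fast motor neurons most prone to degenerate, and neutrophils and macrophages make it too. The wobbler mutation lies in Vps54, a subunit of a vesicle tethering complex, and homozygous mice lose motor neurons and form sperm with defective acrosomes.

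The series holds 50 two-colour arrays that set total RNA of mice homozygous for wobbler (wr/wr) beside wild-type RNA from the matching organ. For testis, each of 10 wr/wr mice has 4 arrays, all with the same wild-type testis pool in the other channel. For spinal cord there are 3 wr/wr RNAs with a common wild-type cord pool, namely pool1 and pool2 of 4 mice each on 4 arrays apiece, and mouse 5995 alone on 2 arrays. All 9 cord mice also gave a testis, so the tissues share animals, and mouse 5907 gave a testis only. The sample labels list 10 wild-type mice in each reference pool, whereas the labelling protocol speaks of 6. The labels give neither ages nor genetic background. Each wr/wr RNA was labelled with Cy5 on some of its arrays and with Cy3 on an equal number, with the wild-type pool in the other dye. Because each tissue has 1 wild-type pool, the spread among wild-type mice is not measured, and in cord a pooled RNA also hides the spread among its 4 mice. The deposited values are ratios without intensities, so whether a gene was well above background, and whether the tissues held their defining markers, was not analysed here.

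Ratios are given as log2 values, a base that was assumed, after each array was centred on its median, and positive values are read as higher in wr/wr. No source used here states this direction, and it is a likely reading. It rests on the channel order in the labels, where the mutant is always first. It also rests on values over 15 in size, of which the 586 with the mutant in Cy5 were all positive and the 886 with the mutant in Cy3 all negative, so that Cy3 would be the channel at its floor each time. Under the opposite reading, in which each ratio is Cy5 over Cy3, the signs of the Cy3 arrays would have to be turned, and that value is given beside the tested results of Ache, Ret and Mmp9 and beside most results of the gene lists. The arrays of both orientations correlated weakly across probes, with a Spearman rho from -0.31 in mouse 6065 to 0.36 in mouse 5995 among the testes, and from -0.23 to -0.02 among the cord RNAs. In testis, rho was also below 0 in mice 5905 and 5997. A probe was called when limma's moderated test of its mean ratio against 0 gave a Benjamini-Hochberg adjusted p under 0.05 over all probes tested.

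Ache, acetylcholinesterase, was lower in wr/wr testis by a small margin. The 10 mice ranged from -0.44 in mouse 6069 to 0.01 in mouse 5905, with a median of -0.12, and 9 of the 10 were below 0. The mean log2 ratio was -0.17 ± 0.14 (SD, n = 10), so that the level fell by 11.0% (adjusted p = 0.0395). Background calls in testis took 2494 of 20218 probes, or 12.3%, and calls in the lower direction took 5.06%. The orientations did not carry the difference equally. With the mutant in Cy3 the ratio was below 0 in every mouse (mean -0.29 ± 0.20, SD, n = 10, adjusted p = 0.0254), and with the mutant in Cy5 it was above 0 in 4 of the 10 (mean -0.04 ± 0.18, SD, n = 10, adjusted p = 0.634). Turning the Cy3 signs gave a mean of 0.13 (adjusted p = 0.0902). Without any 1 of mice 5906, 5907, 6069, 6335, 6493, 6163 or 6065 the adjusted p lay between 0.0548 and 0.0814, and the call held without mouse 5995, 5905 or 5997. Across all alternatives its adjusted p ranged from 0.00567 to 0.634.

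In spinal cord, the tissue in which Ache would come from motor neurons among other cells, the ratio was -0.33 in pool1, 0.03 in pool2 and -0.47 in mouse 5995. Its mean was -0.26 ± 0.26 (SD, n = 3), not past the threshold (adjusted p = 0.562). In cord 0 of 17055 probes were called, a background of 0%, and 1476 probes, or 8.65%, had an unadjusted p under 0.05. The mean of the cord hides a split by dye that took in every array. With the mutant in Cy5 the 5 arrays read 0.17 and 0.50 for pool1, 0.90 and 0.26 for pool2, and 0.16 for mouse 5995. With the mutant in Cy3 the 5 arrays read -0.96 and -1.04 for pool1, -0.41 and -0.64 for pool2, and -1.09 for mouse 5995. No array of one orientation overlapped with the other. The share of all cord probes that split so was not counted, so the split is not shown to be particular to Ache. Across all probes, rho between the orientations was -0.23 to -0.02 in the cord RNAs. With the Cy3 signs turned, 13.7% of cord probes had an unadjusted p under 0.05 in the limma test. For Ache the orientation means were 0.36 ± 0.21 and -0.87 ± 0.31 (SD, n = 3 each), and arrays of the same RNA and dye had an SD of 0.27. With the Cy3 signs turned, Ache had a ratio of 0.62 (adjusted p = 0.364), larger in size than 88.3% of the cord probes under that reading, against 63.4% under the reading used here. The sign of Ache in wobbler cord thus depends on how the ratios are read, and over its alternatives the adjusted p ranged from 0.296 to 0.780.

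**Figure D1:**
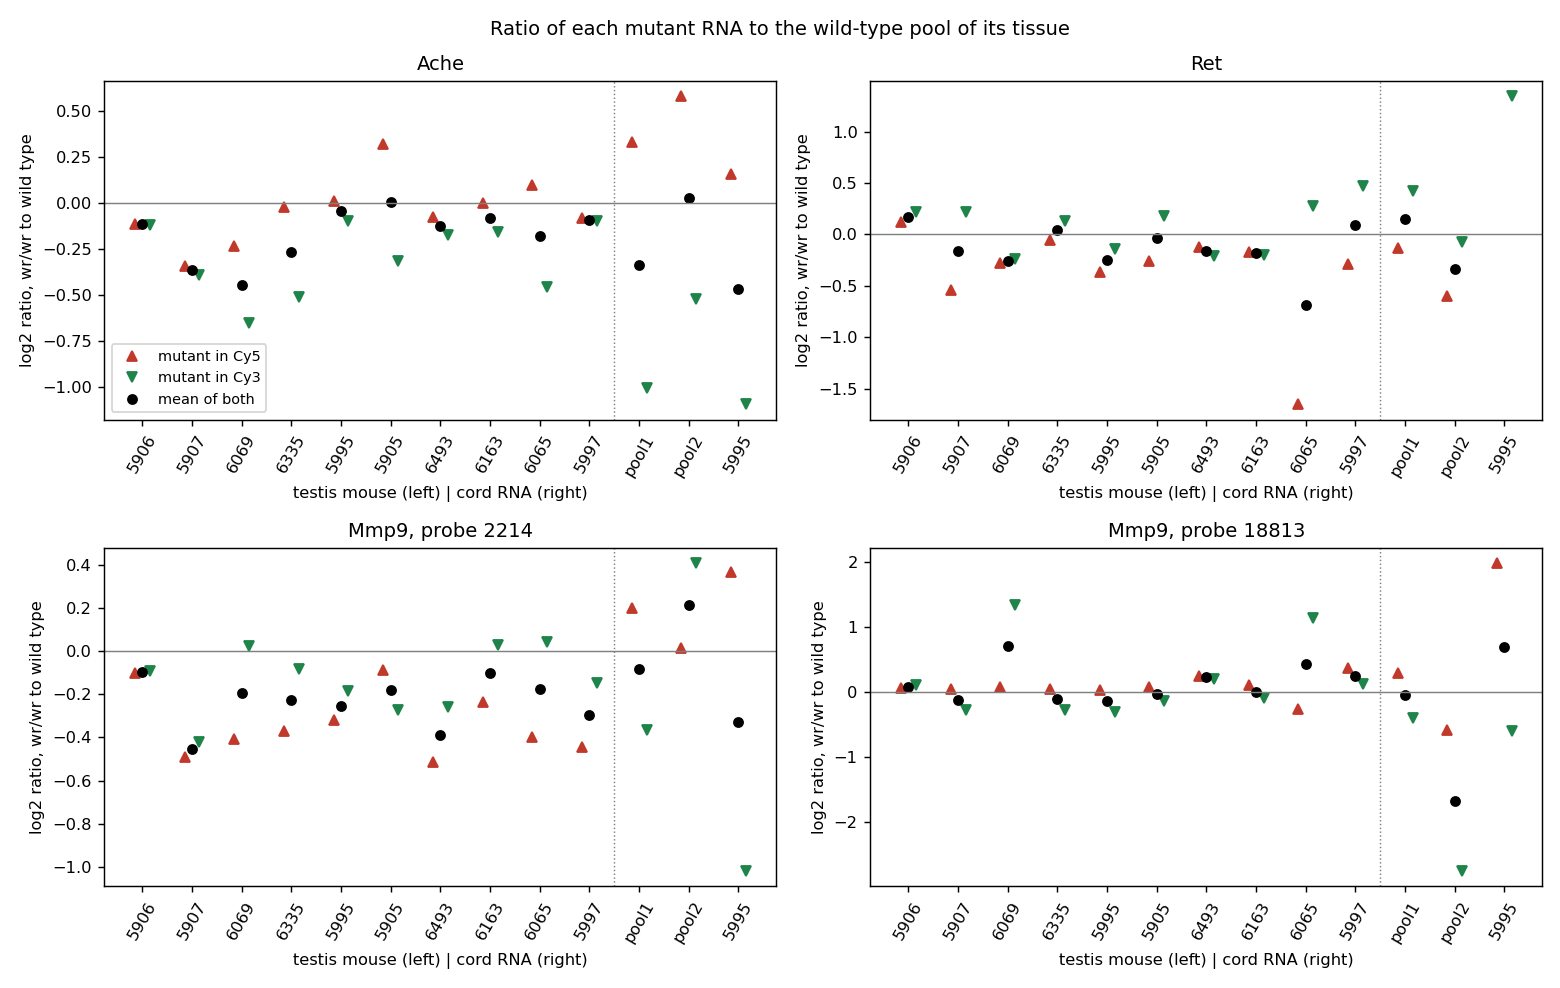
Log2 ratio of wr/wr to the wild-type pool (vertical axis, array-centred) in each of 10 testis mice and 3 cord RNAs (horizontal axis), with the mean of the arrays with the mutant in Cy5 (upward triangles), in Cy3 (downward triangles) and of both (black points). For Ache in cord all Cy5 means lie above 0 and all Cy3 means below it, and Mmp9 probe 2214 lies below 0 in all 10 testes; Ret has no Cy5 value in cord mouse 5995.

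Ret, the receptor of the GDNF family, did not pass the threshold in testis. The mice ranged from -0.69 in mouse 6065 to 0.17 in mouse 5906, with a median of -0.17, and 7 of the 10 were below 0. The mean was -0.15 ± 0.24 (SD, n = 10, adjusted p = 0.199). Mouse 6065 stood apart from the others, and without it the mean was -0.09. Its low value came from its 2 arrays with the mutant in Cy5, at -0.95 and -2.35, while its Cy3 arrays read 0.74 and -0.18. Over all mice the orientation means opposed each other, at -0.36 ± 0.49 with the mutant in Cy5 (adjusted p = 0.101) and 0.07 ± 0.25 with it in Cy3 (SD, n = 10 each, adjusted p = 0.603). Turning the Cy3 signs gave -0.22 (adjusted p = 0.168), and no alternative brought the adjusted p below 0.101.

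In cord, Ret had no Cy5 value for mouse 5995 and was not tested. Pool1 read 0.15 and pool2 -0.34, a pair of opposite sign. The Cy3 mean over all 3 RNAs was 0.56 ± 0.72 (SD, n = 3), led by the single Cy3 array of mouse 5995 at 1.34. The Cy5 arrays of pool1 read -0.30 and 0.04, and those of pool2 -1.16 and -0.05. The 9 arrays with a value split into 4 below 0 and 5 above it. The alternatives under which Ret could be tested in cord gave means from -0.10 to 0.56, with adjusted p from 0.427 to 0.830.

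Mmp9, the gelatinase of fast motor neurons, gave different readings from its pair of probes. Probe 2214 was lower in every testis. The mice ranged from -0.46 in mouse 5907 to -0.10 in mouse 5906, with a median of -0.21, and 34 of the 39 testis arrays with a value were below 0. Its mean was -0.24 ± 0.12 (SD, n = 10), so that the level fell by 15.1% (adjusted p = 0.0118). The orientations had the same sign, at -0.34 ± 0.15 with the mutant in Cy5 (adjusted p = 0.00636) and -0.14 ± 0.15 with the mutant in Cy3 (SD, n = 10 each, adjusted p = 0.136). The call held without each mouse in turn, with adjusted p from 0.0132 to 0.0318. With the Cy3 signs turned the mean kept its sign at -0.10 and missed the threshold (adjusted p = 0.108). Its adjusted p ranged from 4.76e-05 to 0.136 over its alternatives.

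Probe 18813 of Mmp9 was not lower in the same RNAs. Its testis values ranged from -0.14 in mouse 5995 to 0.71 in mouse 6069, with a median of 0.04, and 6 of the 10 mice were above 0. The mean was 0.13 ± 0.28 (SD, n = 10, adjusted p = 0.313). Single Cy3 arrays of 2.77 in mouse 6069 and 2.28 in mouse 6065 set the highest values, beside second Cy3 arrays of -0.08 and 0.003 in these mice. With the median of each mouse's arrays in place of the mean, an alternative that was added once the data had been seen, the probe read 0.02. Turning the Cy3 signs gave -0.05. Averaging both probes gave Mmp9 a testis mean of -0.05 (adjusted p = 0.498), so the call for Mmp9 rests on probe 2214 alone. Of the 4 probes, all tested in testis, 2 were therefore called lower and none higher. Over all probes, 5.06% were called lower and 7.28% higher. Both calls, of Ache and of Mmp9 probe 2214, missed the threshold with the Cy3 signs turned.

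The cord values of Mmp9 did not pass the threshold for either probe. Probe 2214 read -0.08 in pool1, 0.21 in pool2 and -0.33 in mouse 5995, a mean of -0.07 ± 0.27 (SD, n = 3, adjusted p = 0.857). Probe 18813 read -0.05, -1.68 and 0.70 in the same RNAs, a mean of -0.34 ± 1.21 (SD, n = 3, adjusted p = 0.775). The 2 probes ranked the cord RNAs in opposite order. Pool2 was highest for probe 2214 and lowest for probe 18813, and mouse 5995 the reverse. The low value of pool2 on probe 18813 was seen on all 4 of its arrays, which read -0.35 and -0.83 in Cy5 and -3.28 and -2.23 in Cy3. Without pool2 the mean of this probe was 0.32, and without mouse 5995 the mean of probe 2214 was 0.06. Turning the Cy3 signs moved the means to 0.26 for probe 2214 and 0.91 for probe 18813 (adjusted p = 0.547 and 0.364), and no alternative brought either probe past the threshold.

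**Figure D2:**
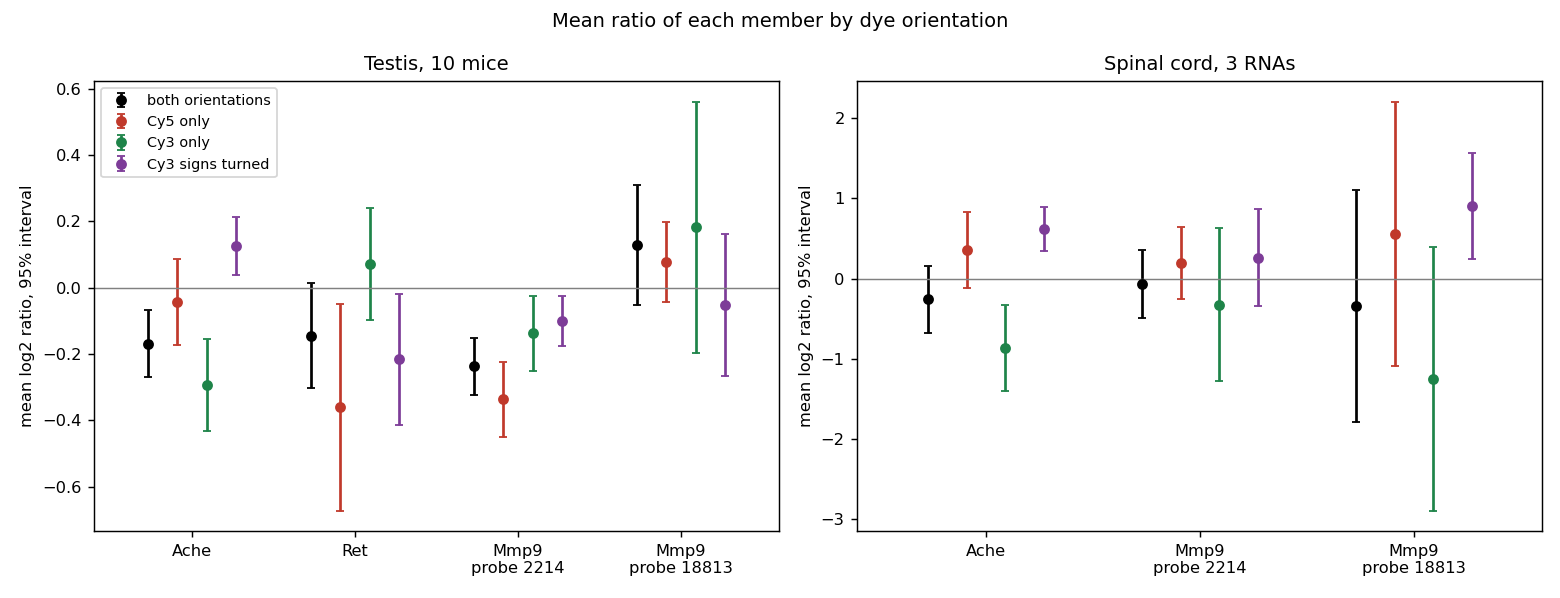
Mean log2 ratio with its 95% interval (limma) for each probe, from both dye orientations, from the Cy5 or the Cy3 arrays alone, and with the signs of the Cy3 arrays turned, in testis (left, 10 mice) and cord (right, 3 RNAs; the vertical scales differ). Mmp9 probe 2214 stays below 0 in testis under all 4, whereas Ache changes sign with the reading in both tissues, at -0.17 and 0.13 in testis and -0.26 and 0.62 in cord; Ret was not tested in cord.

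The test of testis against cord called no difference for these probes. It used 1 pooled spread for both tissues, although ratios spread more widely within cord arrays (median absolute deviation 0.35) than within testis arrays (0.17). An adjusted p can thus be too small for a probe that varies more among the cord RNAs. Ache was 0.09 higher in testis than in cord (95% interval -0.16 to 0.33, adjusted p = 0.608), Mmp9 probe 2214 was 0.17 lower, at -0.17 (-0.40 to 0.06, adjusted p = 0.261), and Mmp9 probe 18813 read 0.47 (-0.28 to 1.22, adjusted p = 0.345). None of the 3 probes was called, where 3604 of 17005 probes, or 21.2%, were. A missed threshold does not show that the tissues respond alike. With each cord RNA set against the testes of its own mice as a block, Ache read 0.14 (adjusted p = 0.683) and the number of probes called fell to 0, with 2148 at an unadjusted p under 0.05. That fit rests on 3 differences, 1 per cord RNA, and cord alone with 3 RNAs also had 0 calls. A call lost under the block therefore does not decide on any single probe. The dye readings parted again here. With the Cy3 signs turned, Ache read -0.49 and Mmp9 probe 18813 -0.96 (adjusted p = 0.00420 and 0.0210), and with Cy3 arrays alone both were called in the other direction, at 0.58 and 1.43 (adjusted p = 0.0148 and 0.0429). With Cy5 arrays alone Mmp9 probe 2214 read -0.53 (adjusted p = 0.0184). The adjusted p over all alternatives ranged from 0.00420 to 0.946 for Ache, from 0.0184 to 0.848 for Mmp9 probe 2214 and from 0.0210 to 0.703 for Mmp9 probe 18813.

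Across the 10 testis mice, the named genes whose ratios ran most like Ache were Abcb8 (Pearson r = 0.95) and Dlgap1 (r = 0.94). The genes most like Mmp9 probe 2214 were Tjp3 (r = 0.93) and Ank1 (r = 0.92), and those most like Ret were Gapvd1 (r = 0.93) and Eps15l1 (r = 0.92). These are the highest values among all named probes over 10 mice that share 1 reference pool, and they are given as a description.

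The partners of acetylcholine signalling were covered for 13 of 30 listed genes, by 20 probes in testis. In testis 3 probes were called higher and 3 lower, the list's median was -0.01, and 9 of its 20 probes were above 0, beside a median of -0.01 and 46.6% above 0 over all probes. Calls over all probes were 5.06% lower and 7.28% higher. Rapsn, the scaffold that clusters acetylcholine receptors, was below 0 in all 10 mice with a mean of -0.25 ± 0.08 (SD, n = 10, adjusted p = 0.00471). Agrn, the nerve-derived signal for that clustering, had a mean of -0.22 ± 0.21, and Lynx1, a membrane modulator of nicotinic receptors, one of -0.18 ± 0.06 with all 10 mice below 0 (SD, n = 10 each, adjusted p = 0.0495 and 0.00824). Chka, which phosphorylates choline towards phospholipid, was above 0 in all 10 mice on both probes, at 0.26 ± 0.13 and 0.16 ± 0.10, and the receptor subunit Chrna4 had a mean of 0.15 ± 0.11 (SD, n = 10 each, adjusted p = 0.0119, 0.0230 and 0.0267). The call of Agrn was lost without 8 of the 10 mice taken singly and that of Chrna4 without 5, while those of Rapsn and Lynx1 held without each. Under the turned Cy3 signs, Rapsn and Lynx1 read 0.021 and 0.034, Agrn -0.012, Chrna4 -0.058, and Chka -0.055 on probe 11918 and 0.031 on probe 16987. Colq, the collagen tail that anchors Ache at the synapse, was not called on any probe. Its probe 5600 averaged -0.51 ± 1.30 (SD, n = 10), with mouse 6493 at -4.21.

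In cord none of the 16 tested probes of this list was called, 8 of the 16 were above 0, and the median was -0.005, beside -0.003 and 49.5% over all cord probes. Chka was below 0 in all 3 cord RNAs on both probes, with means of -0.58 ± 0.62 and -0.21 ± 0.10. Lynx1 was also below 0 in all 3, at -0.33 ± 0.10, and Chrm1, a muscarinic receptor, above 0 in all 3, at 0.39 ± 0.25 (SD, n = 3 each). Like Ache, these probes split by dye. The Cy5 and Cy3 means were 0.13 and -0.79 for Lynx1 and -0.50 and 1.28 for Chrm1. For Chka they were -1.39 and 0.23 on probe 11918 and 0.03 and -0.45 on probe 16987. Under the turned Cy3 signs, Lynx1 read 0.46, Chrm1 -0.89 and Chka -0.81 and 0.24. Over the test of testis against cord, 5 of 16 probes were called, 4 with the higher ratio in testis and 1 with the lower. Both Chka probes were among them, at 0.74 and 0.47 (adjusted p = 0.0121 and 0.00569), and so was Rapsn, at -0.32 (adjusted p = 0.0253). All calls between the tissues were lost with the block by mouse, a fit on 3 differences that called 0 of all probes. For Chka probe 11918 the test pooled an SD of 0.10 among testes with one of 0.62 among cord RNAs.

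Motor neuron transcription factors were covered for 8 of 25 listed genes, and Isl1, the member of the class named at the outset, was not among them. All 9 probes had a testis mean below 0, with a median of -0.08. Over all testis probes, 10789 of 20218 were below 0 and 5.06% were called lower. The 1 called probe of the list was that of Esrrb, an orphan nuclear receptor, at -0.14 ± 0.11 (SD, n = 10, adjusted p = 0.0419). Its call was lost without 9 of the 10 mice taken singly. The list's median was 0.02 with the Cy3 signs turned. In cord 3 of the 9 were above 0 and the median was -0.03. The widest cord values were those of Lmo4, a LIM-only cofactor, at -1.02 ± 1.02 on one probe and -0.37 ± 0.53 on the other, and Phox2a, a factor of cranial motor and noradrenergic neurons, at 0.59 ± 0.85 (SD, n = 3 each), and they read -0.25, 0.40 and -0.03 with the Cy3 signs turned. Their SD among the 3 RNAs was as large as the size of their means or larger.

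Other genes known from motor neurons and their axons were covered for 14 of 22, by 17 probes. In cord this list had the lowest median among the pathway lists, at -0.27, with 12 of 17 probes below 0 and none called. The neurofilament genes had the largest negative means of the list. Nefh, the heavy chain of large axons, read -0.85 in pool1, -0.84 in pool2 and -0.99 in mouse 5995, and Nefm, the medium chain, -0.71, -0.90 and -0.64 (adjusted p = 0.542 for both). In bulk tissue the cells behind these values were not identified. Fewer such cells and less RNA per cell cannot be told apart. Vamp1, a vesicle fusion protein of motor terminals, read -0.27, -0.44 and -0.47 in the same order. Other genes of the list ran the other way. Tac1, the substance P precursor, was above 0 in all 3 RNAs on both probes, at 0.69 ± 0.22 and 0.37 ± 0.07, as were Gap43, a growth cone protein, at 0.38 ± 0.06, and Hspb1, a small heat shock protein that injured motor neurons induce, at 0.69 ± 0.44 (SD, n = 3 each). The list also split by dye, with a cord median of 0.05 from Cy5 arrays and -0.54 from Cy3 arrays, and 0.28 with the Cy3 signs turned. The Cy5 and Cy3 means were -0.49 and -1.30 for Nefh and -0.31 and -1.19 for Nefm, of the same sign where those of Ache were opposed. Their sign still depends on the reading, since the turned Cy3 signs gave 0.40 for Nefh, 0.44 for Nefm and 0.40 for Vamp1. Tac1 read 0.12 and 0.28 under that reading, Gap43 0.21 and Hspb1 0.32, all still above 0.

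In testis the same list had 2 of its 17 probes called in each direction and a median of -0.06. Over all probes, 5.06% were called lower and 7.28% higher. Rbfox3, a neuronal splicing factor, averaged -0.26 ± 0.22 and Nefh -0.19 ± 0.15, while Stmn2, a microtubule regulator of axons, averaged 0.17 ± 0.11 on 1 of its 3 probes and Vamp1 0.16 ± 0.11 (SD, n = 10 each, adjusted p = 0.0346, 0.0296, 0.0229 and 0.0260). Taking out single mice lost the call of Rbfox3 in 6 of 10 cases, that of Nefh in 5, and those of Stmn2 and Vamp1 in 2 each. Under the turned Cy3 signs they read 0.12, -0.12, 0.11 and 0.17. Between the tissues 9 of the 17 probes were called, where 21.2% of all probes were. Nefh, Nefm, Vamp1 and 1 of the 3 Stmn2 probes had the higher ratio in testis, by 0.71, 0.72, 0.55 and 0.44 (adjusted p = 0.00141, 0.00127, 0.00185 and 0.00692). Tac1 on both probes, Anxa4, Hspb1 and Gap43 had the higher ratio in cord. None of these differences was called with the block by mouse, which called 0 of all probes. With the Cy3 signs turned Nefh and Nefm read -0.52 and -0.40.

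Ret belongs to the neurotrophic receptors, and that list was covered for 9 of 16 genes in testis, by 15 probes. Cntf, the ciliary neurotrophic factor that Schwann cells supply to motor neurons, was below 0 in all 10 testes on probe 1791, at -0.23 ± 0.18 (SD, n = 10, adjusted p = 0.0269). The other Cntf probe averaged -0.12 and was not called (adjusted p = 0.114). Ntrk3, the receptor of neurotrophin-3, was called higher on 1 of its 4 probes, at 0.17 ± 0.15 (SD, n = 10, adjusted p = 0.0382), while its other probes read -0.17, -0.16 and 0.02. The call of Cntf was lost without 4 of the 10 mice taken singly and that of Ntrk3 without 7, and with the Cy3 signs turned they read 0.098 and -0.096. The list thus had 1 testis probe called in each direction, where 5.06% of all probes were called lower and 7.28% higher. Its median was -0.07 in testis and -0.05 in cord, with 5 of 15 and 4 of 13 probes above 0. Over all probes 46.6% were above 0 in testis and 49.5% in cord. No tested coreceptor or ligand of Ret was called. Gfra4 read -0.07 ± 0.09 in testis (SD, n = 10). Its cord mean of -0.61 came from mouse 5995 at -1.80, beside -0.018 in pool1 and -0.005 in pool2, and was -0.01 without that mouse. The ligand Pspn read 0.004 ± 0.12 in testis (SD, n = 10) and 0.25 ± 0.04 in cord (SD, n = 3). With the Cy3 signs turned, Gfra4 read 0.02 and -0.24 and Pspn -0.09 and -0.25 in testis and cord.

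The CGRP family was covered for 4 of 9 genes, none of them a peptide. Its 5 probes, for the calcitonin receptor Calcr, the receptor accessory proteins Ramp1 and Ramp2 and the receptor component Crcp, were not called in either tissue. Their median was 0.10 in testis, where 4 of 5 were above 0, and -0.17 in cord, where 1 of 5 was. Over all probes 46.6% were above 0 in testis and 49.5% in cord. The cord median was 0.12 from Cy5 arrays and -0.45 from Cy3 arrays. With the Cy3 signs turned the medians were -0.004 in testis and 0.32 in cord. Mmp9 belongs to the metalloproteinases, a list covered for 12 of 17 genes by 20 probes in testis. There 2 probes were called higher, near the 7.28% of all probes called so. Timp3, a metalloproteinase inhibitor, averaged 0.28 ± 0.16 with all 10 mice above 0, and Timp1, another inhibitor, 0.27 ± 0.24 (SD, n = 10 each, adjusted p = 0.0134 and 0.0369). The call of Timp3 held without each mouse and that of Timp1 was lost without 6 of the 10, and turning the Cy3 signs gave -0.018 and 0.046. The second Timp1 probe averaged -0.51 ± 0.67 over 9 mice, and the other Timp3 probes ranged from -0.13 to 0.13. No probe of these other metalloproteinases and inhibitors was called lower in testis, and none of the 15 tested was called in cord.

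**Figure D3:**
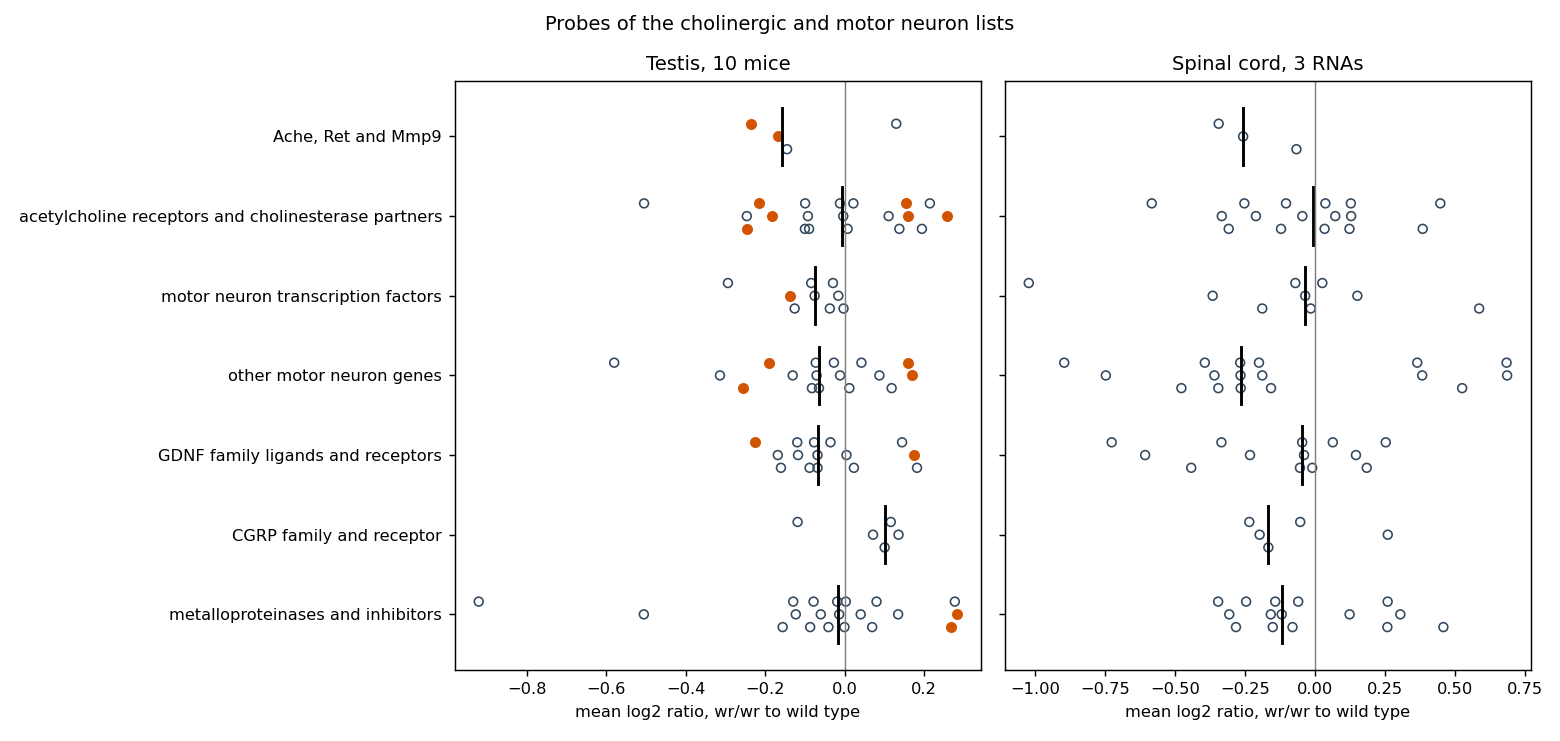
Mean log2 ratio of wr/wr to wild type (horizontal axis) for every tested probe of each list (rows), in testis (left, 10 mice) and cord (right, 3 RNAs; the horizontal scales differ), with called probes filled and list medians as black bars. Calls appear in testis on both sides of 0, the 9 transcription factor probes all lie below 0 there, and the other motor neuron genes spread from -0.90 to 0.69 in cord with none called.

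Markers of other cell types were read on the same arrays. In cord all 9 microglia probes were above 0, with a median of 0.67 and medians of 0.67 to 0.75 in the single RNAs. Among the 3 with the smallest unadjusted p were Lgals3, at 1.43 ± 0.31, and Mpeg1, at 0.86 ± 0.13 (SD, n = 3 each). All 6 oligodendrocyte probes were below 0, with a median of -0.49, Mobp at -0.72 ± 0.03 and Mbp at -0.73 ± 0.25 (SD, n = 3 each). Markers of other spinal neurons had a median of -0.09, those of astrocytes 0.26 and those of neutrophils 0.17. The sensory neuron list, the other main source of Calca, Calcb and Ret, had 1 tested probe in cord. None of these probes was called. The microglia and oligodendrocyte medians were 0.01 and 0.15 with the Cy3 signs turned. Their part in the cord values of the motor neuron genes was not tested.

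In testis, markers of cells that also make Mmp9 were mixed, and the calls are to be read beside 5.06% of all probes called lower and 7.28% higher. The neutrophil list had 12 of 15 probes below 0 and 2 called lower, Lcn2 at -1.39 ± 0.52, whose other probe averaged -0.11, and Elane at -0.24 ± 0.21 (SD, n = 10 each). The testis macrophage list had 4 of 5 probes called lower, among them Cd68 at -0.37 ± 0.26 and C1qa at -0.24 ± 0.19 (SD, n = 10 each), while the fifth, of Lyz2, averaged 0.27. The other Lyz2 probe was among those called lower, at -0.18 (adjusted p = 0.024). Of the 11 microglia probes 4 were called lower and 4 were above 0. Among those called lower, the probes of C1qa, C1qc and Cd68 are the same as in the macrophage list. Leydig cell genes were called lower on 3 of 6 probes, with Hsd17b3 at -0.55 ± 0.11. Hsd3b1, the 1 Leydig probe above 0, averaged 0.25 ± 0.28 (SD, n = 10 each) and was not called (adjusted p = 0.0665). Sertoli cell genes, the source of the Ret ligand GDNF in testis, were called higher on 5 of 7. Spermatocyte genes were called higher on 3 of 4 probes and lower on 1. Spermatid genes had a median of 0.02 over 12 probes, with 1 called lower. Skeletal muscle genes, another source of Ache, had 1 of 13 called in each direction. With the Cy3 signs turned the medians moved from -0.11 to -0.039 for neutrophils, from -0.18 to -0.081 for macrophages and from -0.21 to -0.024 for Leydig cells. For Sertoli cells they moved from 0.28 to 0.068, and for spermatocytes from 0.27 to 0.060. Whether these cell types took part in the testis values of Mmp9, Ret and Ache was not tested.

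**Figure D4:**
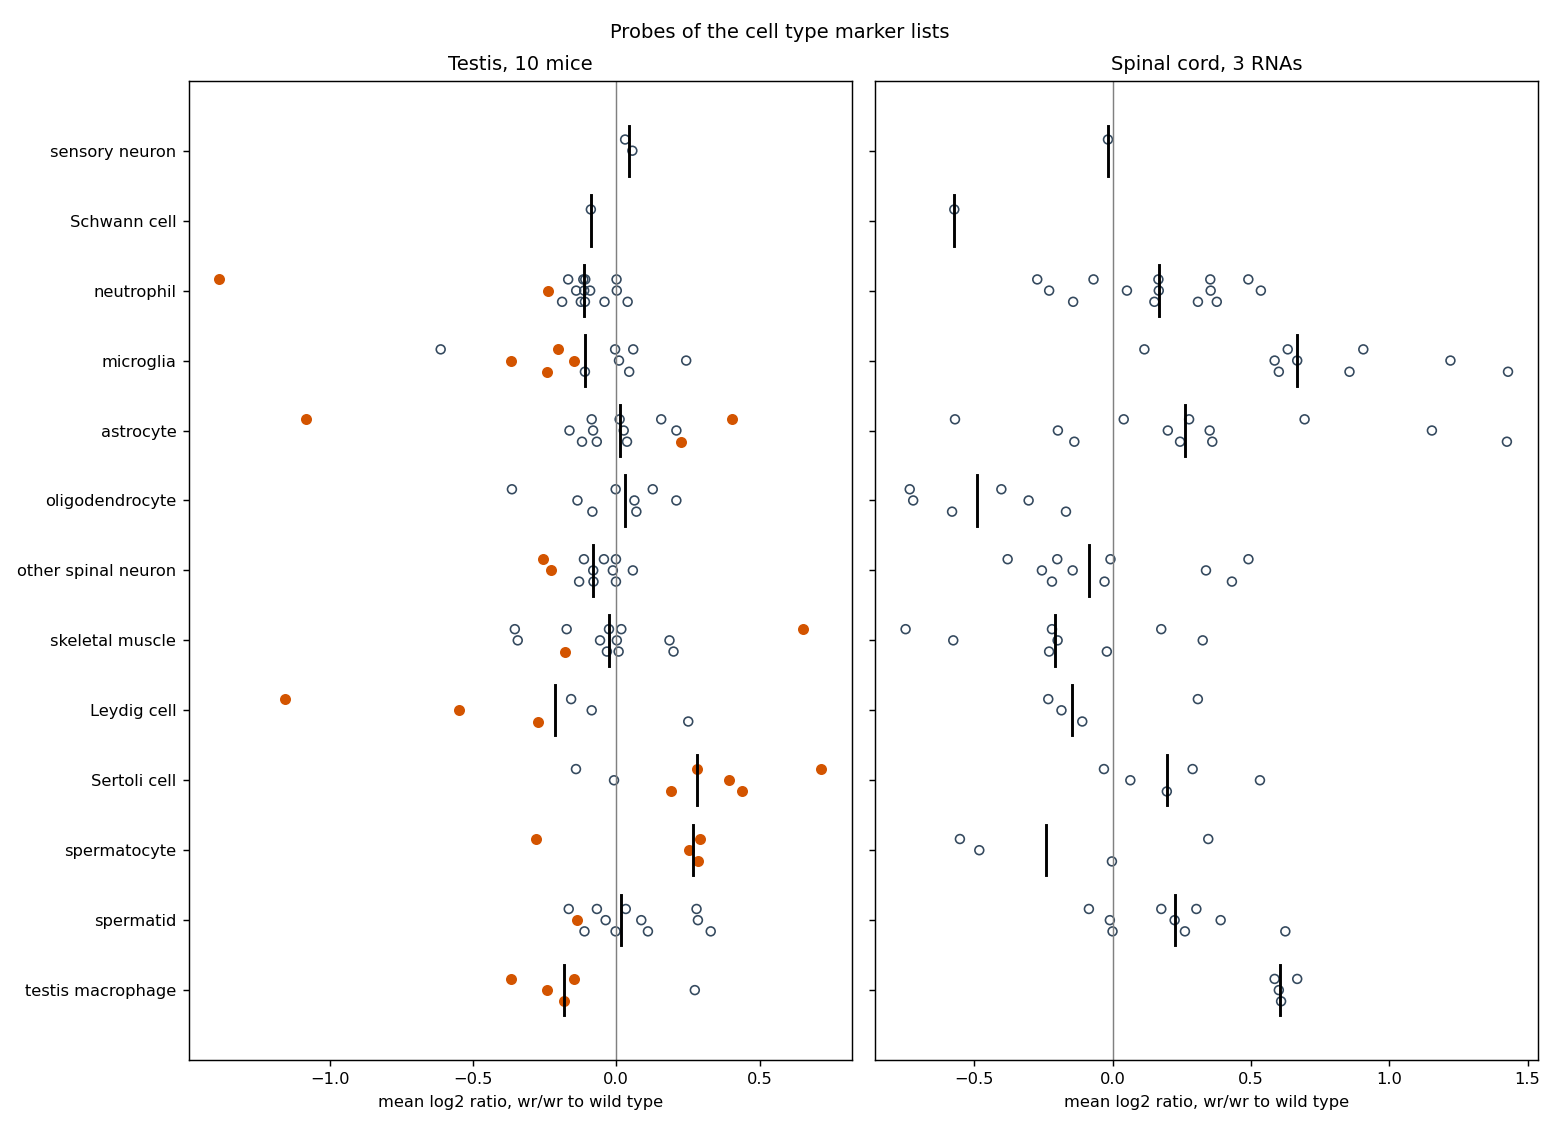
Mean log2 ratio of wr/wr to wild type (horizontal axis) for every tested probe of each cell type marker list (rows), in testis (left, 10 mice) and cord (right, 3 RNAs; the horizontal scales differ), with called probes filled and list medians as black bars. In cord the 9 microglia probes lie above 0 and the 6 oligodendrocyte probes below it, and in testis 4 of 5 macrophage probes were called lower.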

How the data were processed

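The authors deposited 1 log ratio per probe and array, and the deposited values were read as log2; no source used here gives the log base, direction, background correction, normalization or filters. Per the labels' protocols, total RNA was column-purified and 20 µg reverse transcribed and labelled indirectly with Cy3 or Cy5. Each array was centred on its median. Per RNA, the mean of the Cy5 arrays and the mean of the Cy3 arrays were averaged. Probes with both dyes in at least 8 of 10 testis mice, or in all 3 cord RNAs, were tested with limma 3.58.1 in R 4.3.3 (lmFit and eBayes against 0, Benjamini-Hochberg over all probes tested); testis against cord was fitted over the 13 RNAs. Alternatives were each dye alone, turned Cy3 signs, no centring, values over 15 as missing, averaged probes of a gene, a looser filter, single arrays with the RNA as a random block, pairing by mouse, omission of each RNA and, added later, medians of arrays and omission of mice 5905, 5997 and 6065. The procedure was tested on simulated data. Arrays of 1 RNA are technical and count as 1 replicate, and the number of RNAs limits the precision.

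Probe names come from the platform annotation, in which 5 probes carry several symbols and name no gene here, and 6320 carry none. Of the pathway lists, called probes and the tested probes with the largest means in each direction were eligible to be named, and of the marker lists up to 3 per tissue. The 9 genes and all lists were chosen with earlier results of these data known. No mature, promoter or probe sequence is shown, since no value bears on one. Cord RNAs and testes were paired by mouse identity in the labels.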

Additional observations from a re-analysis of the deposited data

Results flagged for a closer look

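Of 55 named probes in testis, 9 had 1 mouse whose distance from its nearest neighbour was large against the range of the 10 mice. For unselected, normally spread values the rule flags about 1 in 20. Most of these probes were named for a call or an extreme mean, which 1 outlying mouse can produce. That rate is therefore no comparison for the flags here. Among the cholinergic motor neuron genes the flagged probe was that of Ret, with mouse 6065 lowest at -0.69. The same mouse was lowest for Crcp at -0.37 and highest for Gap43 at 0.56 and Chrm1 at 0.63. Mouse 5907 was highest for Phox2a at 0.90 and lowest for Olig2 at -0.52. Colq had mouse 6493 lowest at -4.21 on probe 5600 and mouse 5997 lowest at -1.30 on probe 15241, and Timp4 had mouse 6069 lowest at -0.80 on probe 3579.

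Neither Ache nor Mmp9 was called between the tissues by the test of the difference, and 20 probes of the pathway lists were. In the order given above, those lists had 16, 9, 17, 13, 5 and 15 probes tested for the difference. Over all probes, 3604 of 17005, or 21.2%, were called. The ratio was higher in testis than in cord for Ntrk3 by 0.75 and 0.62 on 2 probes, Chka by 0.74 and 0.47 on both probes, Nefm by 0.72, Nefh by 0.71, Vamp1 by 0.55, Timp1 by 0.51, Stmn2 by 0.44, Timp4 by 0.31 on probe 19919, Mmp24 by 0.28, Chrnb2 by 0.26 and Chrna4 by 0.26. Rapsn had the lower ratio in testis at -0.32, as had Tac1 at -0.77 and -0.43 on its probes, Anxa4 at -0.60, Hspb1 at -0.57, Gap43 at -0.46 and Timp2 at -0.34 on probe 18062. Further tested probes of some of these genes were not called. They read 0.10 for Timp2, -0.46 and 0.04 for Timp4, 0.16 for Chrnb2, 0.24 and 0.23 for Stmn2, and -0.225 and 0.17 for Ntrk3. The block by mouse, a fit on 3 differences, left none of the 20 called. Leaving out 1 of the 13 RNAs at a time lost the call of Timp2 in 12 cases, Ntrk3 probe 10275 and Mmp24 in 9, Timp4 in 8, Chrna4 in 6, Gap43 in 5 and Timp1 in 3. Rapsn, Anxa4, Hspb1 and Chrnb2 lost it in 1 case each, and the other 9 probes in none.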

How the results depend on the processing

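The number of testis calls was 2494, and 1352 with Cy3 arrays alone (518 higher, 834 lower), 949 with the Cy3 signs turned (801 higher, 148 lower) and 4590 with single arrays and the RNA as a random block. Without 1 mouse it lay between 846 and 2618, and it was 846 without 6493, 1036 without 6069, 1278 without 6335, 1296 without 5907, 1567 without 5995 and 1614 without 5906. Cord calls were 0, also without each RNA in turn (482 to 1229 at an unadjusted p under 0.05), and 362 with the arrays fitted singly. Calls between the tissues were 3604, and 1604 with Cy5 arrays alone, 1832 with the Cy3 signs turned, 2855 to 4684 without 1 RNA and 0 with the replicate block that pairs each of the 3 cord RNAs with the testes of its own mice. The cause of these shifts was not tested.

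With the Cy3 signs turned, the testis mean changed sign for Ache (0.13), Mmp9 probe 18813 (-0.052), Timp3 (-0.018), Rapsn (0.021), Cntf (0.098), Esrrb (0.023), Chka probe 11918 (-0.055), Ntrk3 (-0.096), Chrna4 (-0.058), Lynx1 (0.034) and Rbfox3 (0.12). In cord it changed sign for Ache (0.62) and for Mmp9 probes 2214 (0.26) and 18813 (0.91). Between the tissues it did so for Ache (-0.49), Mmp9 probe 18813 (-0.96), Rapsn (0.24), Timp1 (-0.0059), Anxa4 (0.20), Ntrk3 (-0.39 and -0.13), Chrna4 (-0.30), Chrnb2 (-0.12), Chka probe 16987 (-0.21), Vamp1 (-0.23), Mmp24 (-0.38), Nefh (-0.52), Nefm (-0.40), Timp4 (-0.20) and Stmn2 (-0.21).

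With Cy3 arrays alone, Ret (0.070) and Vamp1 (-0.013) changed sign in testis, and Mmp9 probe 2214 (0.19) and Chka probe 11918 (-0.010) between the tissues. With Cy5 arrays alone, Ache (0.36) and Mmp9 probes 2214 (0.19) and 18813 (0.56) changed sign in cord, and Ache (-0.40), Mmp9 probe 18813 (-0.49), Chrna4 (-0.041) and Mmp24 (-0.093) between the tissues. Averaging the probes of a gene turned Mmp9 probe 18813 (-0.054), Timp1 (-0.095) and Ntrk3 (-0.033) in testis, and Mmp9 probe 2214 (0.15) and Timp4 (-0.039) between the tissues. Leaving out 1 RNA kept the means of Ache between -0.19 and -0.14 and of Mmp9 probe 2214 between -0.25 and -0.21 in testis. In cord it moved Mmp9 probe 2214 between -0.20 and 0.065 and probe 18813 between -0.86 and 0.32, and between the tissues Ache between -0.016 and 0.23 and Mmp9 probe 18813 between -0.19 and 0.99. Dropping the values over 15, leaving arrays uncentred and admitting any value in 2 RNAs changed no sign or call of Ache, Mmp9 or Ret in testis, or of Ache and Mmp9 in cord. Admitting any value moved Ret in cord from -0.10 over the pools to 0.38 over all 3 RNAs. The number of arrays, and in cord the 3 RNAs, limits every value.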
